A study of Homo sapiens with 9 samples.

Results

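EMP1, EMP2, EMP3 and PMP22 encode the small family of epithelial membrane proteins and their relative, peripheral myelin protein 22. Its members were taken as every probe set whose array annotation names one of these genes as its only gene. That gave 5 of the 22283 probe sets of the table, of which 3 report EMP1 (201324_at, 201325_s_at and 213895_at), 1 reports EMP2 (204975_at) and 1 reports EMP3 (203729_at). No probe set was matched to PMP22 in the annotation used, so PMP22 is not analysed here. The 3 matched genes stand among 11963 genes that the annotation names alone for at least 1 probe set. The annotation lists 0 further probe sets in which a member shares the probe set with another gene.

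RNA was measured on 9 human Affymetrix arrays in A673, an established line of Ewing sarcoma with the EWS/FLI fusion, grown throughout in RPMI medium with serum. The cells received 5 nM siRNA for 48 hours, with 2 arrays for EZH2 siRNA no.2, 1 array for another EZH2 siRNA that has no number in its title (called unnumbered here), and 2 arrays for the control siRNA. Other cells were kept for 24 hours in 100 nM TSA (trichostatin A), which blocks histone deacetylases, with 2 arrays, or in 0.01% DMSO, the solvent control, with 2 arrays. Replicates are titled biological, without mention of separate cultures, so p-values measure only the spread between these samples, which may be technical.

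These proteins are short, cross the membrane several times and belong to the same superfamily as the claudins of tight junctions. PMP22 is a component of the myelin of peripheral nerve. EMP1 is known from epithelia and other dividing or differentiating tissues, EMP2 influences which integrins and caveolins reach the cell surface, and EMP3 is widely expressed outside epithelia. EZH2 is the enzyme of a Polycomb complex that methylates histone H3 and thereby silences genes, and the study followed EMP1 as one of the genes that EZH2 might silence in Ewing tumours.

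EMP1 lies on chromosome 12 at 13196726 to 13219941, EMP2 on chromosome 16 at 10528422 to 10580598 and EMP3 on chromosome 19 at 48325552 to 48330553, in the RefSeq annotation of GRCh38.p14. The 250 bases before the annotated start of each gene are given because both treatments act on chromatin and the 3 promoters differ in base composition. They are read 5′ to 3′ on the strand of the gene, and capitals mark each CG dinucleotide. All come from RefSeq on GRCh38.p14.

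EMP1 promoter, chr12:13196476-13196725, plus strand: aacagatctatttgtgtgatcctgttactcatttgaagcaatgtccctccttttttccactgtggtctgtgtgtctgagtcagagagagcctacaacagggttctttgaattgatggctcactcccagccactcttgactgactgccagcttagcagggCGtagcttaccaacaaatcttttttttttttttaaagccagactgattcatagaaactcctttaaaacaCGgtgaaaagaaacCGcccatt
EMP2 promoter, chr16:10580599-10580848, minus strand: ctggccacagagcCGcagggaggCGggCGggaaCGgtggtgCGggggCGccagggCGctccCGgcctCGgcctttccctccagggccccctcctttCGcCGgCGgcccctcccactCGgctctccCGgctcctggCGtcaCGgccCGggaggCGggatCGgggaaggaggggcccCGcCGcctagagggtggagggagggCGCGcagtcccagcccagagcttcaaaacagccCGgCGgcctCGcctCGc
EMP3 promoter, chr19:48325302-48325551, plus strand: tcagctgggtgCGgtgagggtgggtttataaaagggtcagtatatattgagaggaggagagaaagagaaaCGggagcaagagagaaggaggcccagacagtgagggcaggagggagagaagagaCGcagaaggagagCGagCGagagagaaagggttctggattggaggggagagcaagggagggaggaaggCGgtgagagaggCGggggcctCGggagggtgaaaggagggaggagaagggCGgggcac

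The EMP1 window held 3 CG dinucleotides and 42.4% G and C. The EMP2 window held 27 CG dinucleotides and 77.2% G and C, and the EMP3 window held 9 and 59.2%. Across 35116 RefSeq windows of the same length the median was 11 CG dinucleotides, and 93.94% of them held at least 1. The EMP1 window was thus the poorest of the 3 in CG, with as few or fewer in 29.31% of all windows, and the EMP2 window the richest, with as few or fewer in 84.14%. The core letters of ETS factor sites, GGAA on either strand, occurred 1 time in the EMP1 window, 3 times in the EMP2 window and 1 time in the EMP3 window, and 92.74% of all windows held them, with a median of 3. The AP-1 letters TGAGTCA, searched on both strands, occurred 1 time in the EMP1 window, beginning 175 bases before the start, and 0 times in the windows of EMP2 and EMP3, while 4.203% of all windows held them. EMP3 has a further annotated start, whose window is not printed and held 4 CG dinucleotides and 6 matches to GGAA.

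Values are MAS5 signals, the summary of an Affymetrix probe set on a linear scale that the authors deposited. Median signals ran from 125 to 159 across the arrays, and arrays of the same group correlated at r = 0.957 to 0.969 over all probe sets. The spiked hybridisation controls were brighter on the 4 arrays of replicate 2 (mean log2 signal 10.43 to 10.53) than on the 5 others (9.80 to 10.16). EZH2 read 572 and 270.6 with EZH2 siRNA no.2 and 681 with the unnumbered EZH2 siRNA, against 1130.1 and 1172 with the control siRNA, so the targeted RNA was lower on all 3 arrays of its siRNAs. All 8 Ewing sarcoma markers with a probe set lay above the low-signal filter, among them CD99 and NKX2-2. Their summed signal was 38091 to 38905 with EZH2 siRNA no.2 and 39592 with the unnumbered EZH2 siRNA. It was 43056 to 53995 with the control siRNA, 42168 to 44902 in TSA and 45060 to 45793 in DMSO. By mean signal over all arrays, CD99 (17676), CCND1 (7985) and STEAP1 (6989) were the largest contributors. Of all single probe sets tested, 12.8% were lower without overlap with EZH2 siRNA no.2 than with the control siRNA. Whether several of these markers fell together was not tested. The epithelial markers EPCAM, CDH1, KRT5, KRT14 and KRT19 lay below the filter and KRT8 and KRT18 above it. The number of arrays limits the precision, and a bulk array cannot tell more cells with a transcript from more transcript per cell.

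EMP1 was followed by 3 probe sets, and all 3 read higher with EZH2 siRNA no.2 than with the control siRNA. On 201324_at, the EMP1 probe set of highest mean signal, the signals were 350.6 and 353 with EZH2 siRNA no.2 and 454 with the unnumbered EZH2 siRNA, against 175 and 62.7 with the control siRNA. On the same probe set they were 395 and 295.5 in TSA, against 113 and 243 in DMSO. The 5 arrays with an EZH2 siRNA or TSA all lay above the 4 control arrays, with a lowest signal of 295.5 against a highest control signal of 243. Of all 13665 probe sets tested, 2.14% showed this order upward and 1.51% showed it downward. This way of splitting the arrays was chosen after the values had been seen.

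The second EMP1 probe set, 201325_s_at, read 273 and 280.3 with EZH2 siRNA no.2 and 208 with the unnumbered EZH2 siRNA, against 200.4 and 90.6 with the control siRNA. It read 181 and 241 in TSA, against 159 and 123 in DMSO. Each treated group lay above its own control. Of all probe sets tested, 39.2% did so with the single unnumbered EZH2 siRNA array, 22.4% with EZH2 siRNA no.2 and 16.1% with TSA. The lower TSA array (181) lay under the higher control siRNA array (200.4), so the order over all 9 arrays seen on 201324_at was not repeated. The suffix of 201325_s_at marks probes that more than 1 transcript can share, and the deposited values do not separate such transcripts.

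The third EMP1 probe set, 213895_at, was dim, with a mean signal of 36.8, below the 53.3 set as the filter on low signal. It read 45.3 and 39.4 with EZH2 siRNA no.2 and 46.3 with the unnumbered EZH2 siRNA, against 20.9 and 21.6 with the control siRNA. It read 35.7 and 45.4 in TSA, against 33.1 and 43.4 in DMSO. The control siRNA arrays were the 2 dimmest of all, and the TSA and DMSO arrays overlapped. How many of all probe sets were dimmest on both control siRNA arrays was not counted.

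**Figure D1:**
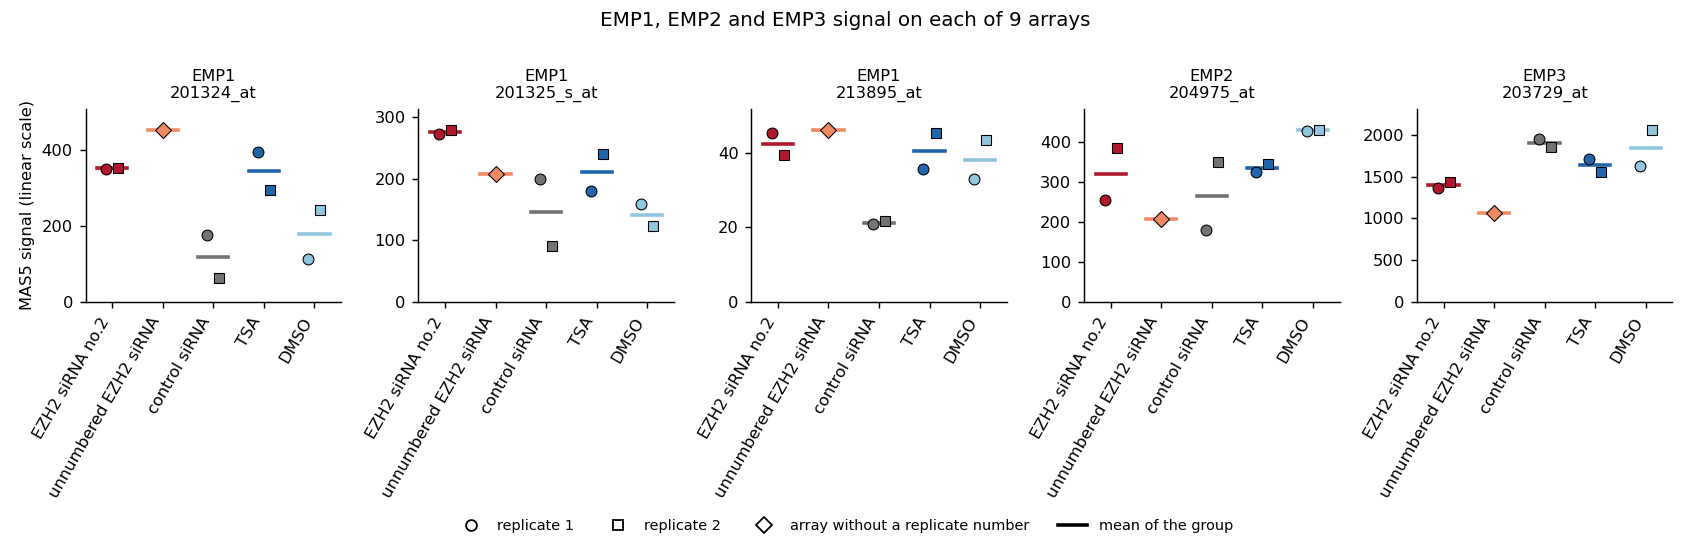
MAS5 signal (linear scale, each panel with its own axis from 0) of the 5 EMP probe sets, with 1 point per array, the replicate shown by the symbol and the mean of each group as a bar. On EMP1 201324_at the arrays with an EZH2 siRNA or TSA sit between 295.5 and 454, all above the control siRNA and DMSO arrays, while on EMP3 203729_at the 3 EZH2 siRNA arrays are the lowest.

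With EZH2 siRNA no.2, EMP1 201324_at averaged a signal of 352 ± 1.49, against 119 ± 79.6 with the control siRNA (SD, n = 2 each). That is a ratio of 2.96 between the mean signals and a log2 fold change of 1.51 on log2 of the signal plus 25.1 (SE 0.42, 95% confidence interval 0.58 to 2.44). EMP1 201325_s_at averaged 277 ± 5.33 against 145 ± 77.6, a log2 fold change of 0.90 (SE 0.35, interval 0.12 to 1.68). Neither passed limma after Benjamini-Hochberg adjustment over all 13665 probe sets (adjusted p = 0.920 each), and 0% of probe sets did. At an unadjusted limma p under 0.05, which 5.27% of all probe sets reached, both EMP1 probe sets were counted (0.00442 for 201324_at and 0.0268 for 201325_s_at), though neither was without control siRNA replicate 2 (0.0575 and 0.260). The dim 213895_at averaged 42.3 ± 4.15 against 21.3 ± 0.496, a difference of 0.54 on the same log2 scale, and was not among the probe sets tested. All 3 EMP1 probe sets read higher without overlap between the groups, as did 22.4% of all probe sets tested.

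On 201324_at and 201325_s_at the spread of EMP1 was wider between the control siRNA arrays than between the EZH2 siRNA no.2 arrays, and on 213895_at it was narrower. The EMP1 log2 difference on 201324_at was 0.91 within replicate 1 and 2.11 within replicate 2, and on 201325_s_at 0.40 and 1.40. Without control siRNA replicate 2, the dimmest EMP1 array on both probe sets, the log2 fold change was 0.91 on 201324_at and 0.42 on 201325_s_at. Without control siRNA replicate 1 it was 2.10 and 1.38. The summed signal of the epithelial markers was 7427 to 7717 with EZH2 siRNA no.2 and 7695 with the unnumbered EZH2 siRNA, against 4892 to 7357 with the control siRNA, with EPCAM and CDH1 below the filter. The sums for other cell types were also higher with EZH2 siRNA no.2 than with the control siRNA, without overlap. They were 6967 to 7309 against 5632 to 6639 for 6 fibroblast markers, 217 to 221 against 175 to 198 for 5 endothelial markers and 258 to 444 against 201 to 217 for 4 blood markers. With the unnumbered EZH2 siRNA these sums were 6588, 193 and 385. In DMSO they were 8570 to 9238, 174 to 213 and 255 to 337, and in TSA 5971 to 14716, 179 to 240 and 257 to 415. LUM, CDH5, TEK, KDR, VWF, PTPRC and CD14 lay below the filter, and PECAM1 was the only endothelial marker above it. The epithelial, fibroblast and endothelial sums each came mainly from a single gene. By mean signal over all arrays these were KRT18 (6424, next KRT8 at 215), COL1A2 (6404, next COL3A1 at 417) and PECAM1 (112, next KDR at 28). Whether several markers of a cell type rose together was not tested. Of all single probe sets tested, 22.4% were higher without overlap in this comparison. The part of these markers in the EMP1 values was not tested. The 2 EZH2 siRNA no.2 arrays differed little on EMP1, although their EZH2 signals were 572 and 270.6.

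The single array of the unnumbered EZH2 siRNA gave the highest EMP1 signal of all on 201324_at. Its log2 fold change over the same control siRNA arrays was 1.85 on 201324_at (SE 0.52, interval 0.72 to 2.99, limma adjusted p = 0.952) and 0.53 on 201325_s_at (SE 0.43, interval −0.42 to 1.48, limma adjusted p = 0.956). At an unadjusted limma p under 0.05, which 5.01% of probe sets reached, EMP1 201324_at (0.00429) and EMP3 were counted. The error here was borrowed from the groups with 2 arrays, and both EZH2 siRNAs were set against the same 2 control siRNA arrays. On 201325_s_at the value was 0.05 without control siRNA replicate 2. EZH2 siRNA no.2 against the unnumbered EZH2 siRNA gave −0.35 on 201324_at (interval −1.49 to 0.79) and 0.37 on 201325_s_at (interval −0.58 to 1.32), so neither which siRNA gave more EMP1 nor that they gave the same was resolved.

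With TSA, EMP1 201324_at averaged 345 ± 70.3, against 178 ± 91.8 in DMSO (SD, n = 2 each), a ratio of 1.94 and a log2 fold change of 0.93 (SE 0.42, interval −0.0003 to 1.86, limma adjusted p = 1.00). EMP1 201325_s_at averaged 211 ± 42.4 against 141 ± 25.5, a log2 fold change of 0.50 (SE 0.35, interval −0.27 to 1.28, limma adjusted p = 1.00). On 213895_at the means were 40.6 ± 6.88 and 38.2 ± 7.31, a difference of 0.05. At an unadjusted limma p under 0.05, which 2.41% of probe sets reached, 0 of the 4 tested EMP probe sets were counted. EMP1 201324_at lay at that limit (0.0501) and was counted in 8 of 19 alternatives, among them the replicate block (0.0425). The groups did not overlap on 201324_at and 201325_s_at, both higher in TSA, as for 16.1% of all probe sets tested.

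Replicates were again unequal for EMP1 with TSA, and not in the same way on both probe sets. On 201324_at the log2 difference was 1.60 within replicate 1 and 0.26 within replicate 2, whereas on 201325_s_at it was 0.16 and 0.84. Without DMSO replicate 1 the fold change of 201324_at was 0.45, and without DMSO replicate 2 it was 1.41. On 201325_s_at it was 0.32 without TSA replicate 2. The EMP1 effect of EZH2 siRNA no.2 minus that of TSA was 0.58 on 201324_at (interval −0.74 to 1.89) and 0.40 on 201325_s_at (SE 0.50), with a limma adjusted p of 1.00 for each.

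The solvent and transfection controls were also compared, which differ in treatment time and in transfection. DMSO against the control siRNA gave a log2 fold change for EMP1 of 0.54 on 201324_at (SE 0.42, interval −0.39 to 1.47) and 0.03 on 201325_s_at (SE 0.35, interval −0.74 to 0.81), with a limma adjusted p of 1.00 each. On 213895_at the DMSO arrays averaged 38.2 ± 7.31 and the control siRNA arrays 21.3 ± 0.496, without overlap, as for 19.4% of all probe sets tested in the higher direction. The part of these control differences in the EZH2 siRNA values of EMP1 was not tested.

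The order of EMP1 levels was the same on 201324_at and 213895_at and differed on 201325_s_at. On 201324_at the group means ran, from the top, unnumbered EZH2 siRNA, EZH2 siRNA no.2, TSA, DMSO and control siRNA. The arrays of EZH2 siRNA no.2 overlapped those of TSA, and those of DMSO overlapped those of the control siRNA. On 213895_at the arrays of TSA overlapped those of both EZH2 siRNA no.2 and DMSO. On 201325_s_at EZH2 siRNA no.2 stood first, TSA and the unnumbered EZH2 siRNA overlapped in the middle, and the control siRNA and DMSO overlapped at the bottom. Across the 9 arrays, 201324_at correlated with 201325_s_at at r = 0.74 and with 213895_at at r = 0.76, as a description of probe sets that share arrays and a target.

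**Figure D2:**
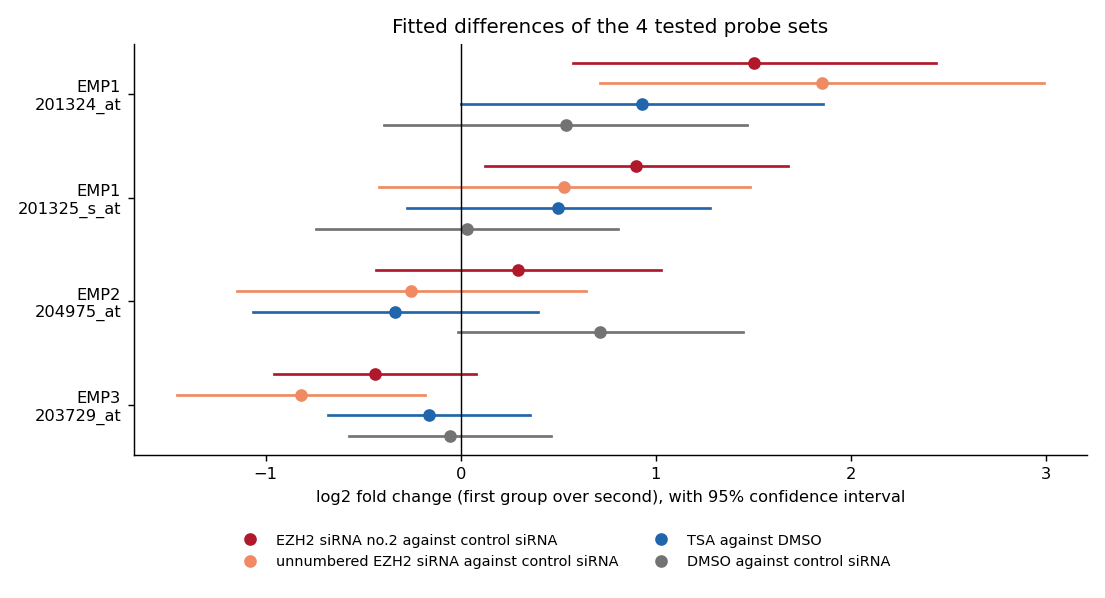
Fitted log2 fold changes (points) with 95% confidence intervals (lines) of the 4 tested EMP probe sets, for 4 comparisons, from limma on 9 arrays. EMP1 201324_at lies above 0 in each of them, with intervals of 0.58 to 2.44 for EZH2 siRNA no.2 and −0.39 to 1.47 for DMSO against the control siRNA, and EMP3 lies below 0 in each.

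EMP3, unlike EMP1, read lower with the EZH2 siRNAs than with the control siRNA. Its probe set 203729_at read 1361 and 1432 with EZH2 siRNA no.2 and 1066 with the unnumbered EZH2 siRNA, against 1947 and 1855 with the control siRNA. It read 1709.95 and 1558 in TSA, against 1623 and 2063 in DMSO. The 3 EZH2 siRNA arrays were the 3 lowest of all 9, with a highest signal of 1432 against a lowest of 1558 on the other 6 arrays. Of all probe sets tested, 1.13% showed this order downward and 2.17% showed it upward. This split, too, was chosen after the values had been seen.

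EMP3 averaged 1397 ± 50.6 with EZH2 siRNA no.2, against 1901 ± 65.2 with the control siRNA (SD, n = 2 each), a ratio of 0.735 and a log2 fold change of −0.44 (SE 0.24, interval −0.96 to 0.08, limma adjusted p = 0.921). The groups did not overlap, as for 12.8% of all probe sets in the lower direction. The differences within replicates were close to each other, at −0.51 and −0.37. With the unnumbered EZH2 siRNA the log2 fold change was −0.82 (SE 0.29, interval −1.45 to −0.185, limma adjusted p = 0.952, unadjusted 0.0160), a ratio of 0.561. With the 3 EZH2 siRNA arrays taken as 1 group, EMP3 gave −0.57 (limma adjusted p = 0.571) and EMP1 201324_at gave 1.62 (limma adjusted p = 0.516).

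In TSA, EMP3 averaged 1634 ± 108, against 1843 ± 312 in DMSO, and the arrays overlapped. Its log2 fold change was −0.16 (SE 0.24, interval −0.68 to 0.36, limma adjusted p = 1.00), with 0.07 within replicate 1 and −0.40 within replicate 2. Without DMSO replicate 2 it was 0.0083. DMSO against the control siRNA gave −0.05 for EMP3 (interval −0.57 to 0.46). Ordered from the top, the EMP3 means ran control siRNA, DMSO, TSA, EZH2 siRNA no.2 and unnumbered EZH2 siRNA. The first 3 overlapped with their neighbours in that order, and the EZH2 siRNA no.2 arrays lay below those of TSA without overlap. The share of all probe sets with this gap between EZH2 siRNA no.2 and TSA was not counted.

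EMP2, which affects integrin and caveolin traffic, overlapped with the control siRNA for both EZH2 siRNAs. Its probe set 204975_at read 256 and 386 with EZH2 siRNA no.2 and 207 with the unnumbered EZH2 siRNA, against 179 and 350.1 with the control siRNA. In each group with 2 numbered arrays the replicate 2 array was the brighter one, by less in TSA (326 and 346) and DMSO (428 and 432). Both EZH2 siRNA no.2 arrays lay above the unnumbered EZH2 siRNA array, as for 30.9% of all probe sets tested, with a log2 fold change of 0.55 between them (SE 0.41, interval −0.35 to 1.44, limma adjusted p = 1.00). The log2 fold change of EMP2 was 0.30 with EZH2 siRNA no.2 (SE 0.33, interval −0.43 to 1.03, limma adjusted p = 0.953) and −0.25 with the unnumbered EZH2 siRNA (SE 0.41, interval −1.15 to 0.64, limma adjusted p = 0.979). Without control siRNA replicate 1 the EMP2 value of EZH2 siRNA no.2 was −0.14.

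In TSA, EMP2 read 326 and 346, against 428 and 432 in DMSO, the 2 brightest EMP2 arrays of the 9. The groups did not overlap, as for 12.1% of all probe sets in the lower direction. How many probe sets were brightest on both DMSO arrays was not counted. EMP2 averaged 336 ± 13.8 in TSA, against 429.9 ± 2.61 in DMSO (SD, n = 2 each), a log2 fold change of −0.33 (SE 0.33, interval −1.07 to 0.40, limma adjusted p = 1.00). The differences within replicates were −0.37 and −0.30. DMSO against the control siRNA gave 0.72 for EMP2 (SE 0.33, interval −0.01 to 1.45, limma adjusted p = 1.00), with 1.15 within replicate 1 and 0.28 within replicate 2, and the arrays did not overlap, as for 19.4% of all probe sets. Without control siRNA replicate 1 it was 0.28. The EMP2 effect of EZH2 siRNA no.2 minus that of TSA was 0.63 (interval −0.40 to 1.66, limma adjusted p = 1.00). It was 0.19 without control siRNA replicate 1 and 1.07 without control siRNA replicate 2. The same difference for EMP3 was −0.28 (interval −1.01 to 0.46), with −0.10 without DMSO replicate 1 and −0.45 without DMSO replicate 2.

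**Figure D3:**
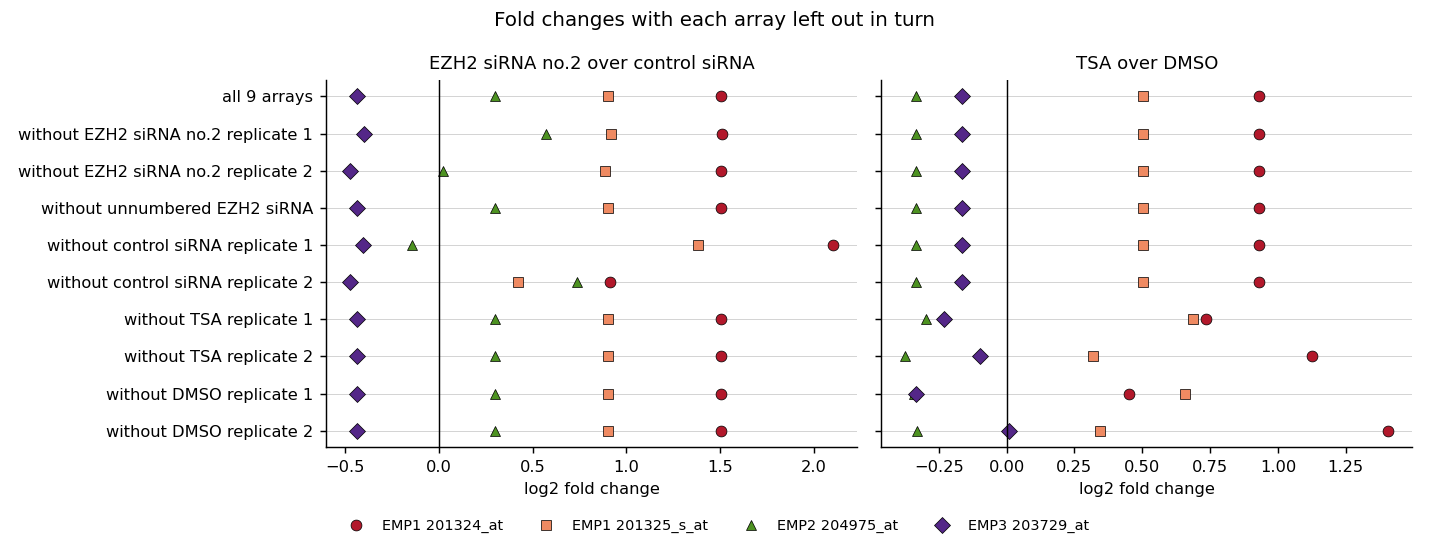
Log2 fold changes of the 4 tested EMP probe sets for EZH2 siRNA no.2 over the control siRNA and for TSA over DMSO, with all 9 arrays (top) and with each array left out in turn. EMP1 201324_at ranges from 0.91 to 2.10 in the siRNA comparison and from 0.45 to 1.41 in the TSA comparison, while EMP2 and EMP3 each cross 0 in 1 of the 2 comparisons.

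Over the 9 arrays the members followed different patterns. EMP1 201324_at correlated with EMP2 at r = −0.26 and with EMP3 at r = −0.58 and EMP2 with EMP3 at r = 0.33. These are descriptions over arrays that share treatments and replicate numbers. By Pearson correlation over the 9 arrays, the genes most like EMP1 201324_at among 9099 others were TSPYL4 (r = 0.95), RBL1 (0.95), MARCKS (0.95), TSPYL1 (0.95) and ZNF302 (0.95), and 24 genes reached 0.9. RBL1 is a pocket protein of the cell cycle and MARCKS a substrate of protein kinase C. The log2 fold changes of these 5 genes ran from 0.34 (TSPYL1) to 1.24 (MARCKS) with EZH2 siRNA no.2 and from 0.23 (TSPYL1) to 0.58 (ZNF302) with TSA. Because these genes were picked for likeness to EMP1 on the same arrays, their fold changes are no separate evidence of a shared response.

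The genes most like EMP2 were PAK6, a protein kinase (r = 0.96), GK3, a glycerol kinase gene (0.96), and ATP6V1B1, a proton pump subunit (0.94). Those most like EMP3 were the coagulation factor F7 (r = 0.95), the muscle caveolin CAV3 (0.94) and TMEM59 (0.91). Of all genes searched, 20 reached an r of 0.9 with EMP2 and 3 with EMP3. Several of these genes were dim on some arrays, with lowest signals of 28.5 for ATP6V1B1, 38.1 for GK3 and 35.3 for CAV3.

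Claudins and the other relatives in the same superfamily were set beside the family from a list of 35 genes, of which 26 had a probe set and 14 were tested. With EZH2 siRNA no.2, 9 were positive and 5 negative, the median log2 fold change was 0.18 against 0.08 over all 9100 genes, and 0 reached an unadjusted limma p under 0.05, against 5.52% of genes. The smallest p-values belonged to CACNG4, a calcium channel subunit (log2 0.53, SE 0.34), TMEM47, a junctional membrane protein (−0.33, SE 0.28) and CLDN18 (0.34, SE 0.32). With TSA the median was 0.10 against 0.03 over all genes, and 0 of the 14 reached an unadjusted limma p under 0.05, against 2.43% of genes. CACNG3, another member of the calcium channel subunit family, was at 1.35 (SE 0.74), CLDN11, a claudin of myelin, at 0.48 (SE 0.46) and CLDN6 at 0.29 (SE 0.31), with limma adjusted p of 1.00 for each. The CACNG3 signal averaged 221 ± 80.4 in TSA against 94.7 ± 105 in DMSO, and the arrays overlapped.

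Myelin genes, chosen for the role of PMP22, numbered 18, with 10 tested. Their median was 0.13 with EZH2 siRNA no.2, against 0.08 over all genes, and 0.06 with TSA, against 0.03 over all genes. An unadjusted limma p under 0.05 was reached by 0 of the 10 in either comparison, against 5.52% and 2.43% of genes. MAL, a myelin and lymphocyte proteolipid, was at 0.47 (SE 0.37) with EZH2 siRNA no.2 and at −0.39 (SE 0.37) with TSA. GJB1, a gap junction protein of Schwann cells, was at 0.44 (SE 0.43) and ERBB3, a neuregulin receptor, at 0.34 (SE 0.40) with EZH2 siRNA no.2. POU3F1, a Schwann cell transcription factor, was at 0.51 (SE 0.32) and MAG, a glycoprotein of myelin, at 0.54 (SE 0.61) with TSA. Several of these genes were dim, against a filter of 53.3. Mean signals with EZH2 siRNA no.2 and the control siRNA were 76.2 and 47.0 for MAL and 79.5 and 54.3 for GJB1. For ERBB3 they were 81.9 and 59.1. MAG averaged 86.2 ± 15.1 in TSA against 65.6 ± 69.3 in DMSO, with overlap. Among Schwann cell markers, SOX10 and S100B lay below the filter. The summed signal of the 4 markers with a probe set was 244 to 275 with EZH2 siRNA no.2 and 201 with the unnumbered EZH2 siRNA. It was 194 to 220.4 with the control siRNA, 247 to 310 in TSA and 252 to 262 in DMSO. Of all single probe sets tested, 22.4% were higher without overlap with EZH2 siRNA no.2 than with the control siRNA. The part of these markers in the EMP1 differences was not tested.

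Proteins reported to bind or act with family members gave another list of 18 genes, with 15 tested. With EZH2 siRNA no.2, 10 were positive and 5 negative, the median was 0.14 against 0.08 over all genes, and 2 of the 15 reached an unadjusted limma p under 0.05, both higher, against 3.81% of genes in that direction. They were ITGB1, the shared beta chain of many integrins, with a mean signal of 5052 ± 5.78 against 3531 ± 441 with the control siRNA (log2 0.52, SE 0.23), and ITGAV, an integrin alpha chain, with 780.1 ± 75.3 against 499 ± 80.3 (log2 0.62, SE 0.28). Neither passed after adjustment (limma adjusted p = 0.920 each). TJP1, a tight junction scaffold, was at 0.60 (SE 0.30) with EZH2 siRNA no.2 and at 0.54 (SE 0.30) with TSA. With TSA the median was 0.08 against 0.03 over all genes, with CD44, a hyaluronan receptor, at 0.71 (SE 0.43) and RER1, a retrieval receptor of the early secretory pathway, at −0.34 (SE 0.27), and 0 of the 15 reached an unadjusted limma p under 0.05, against 2.43% of genes.

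**Figure D4:**
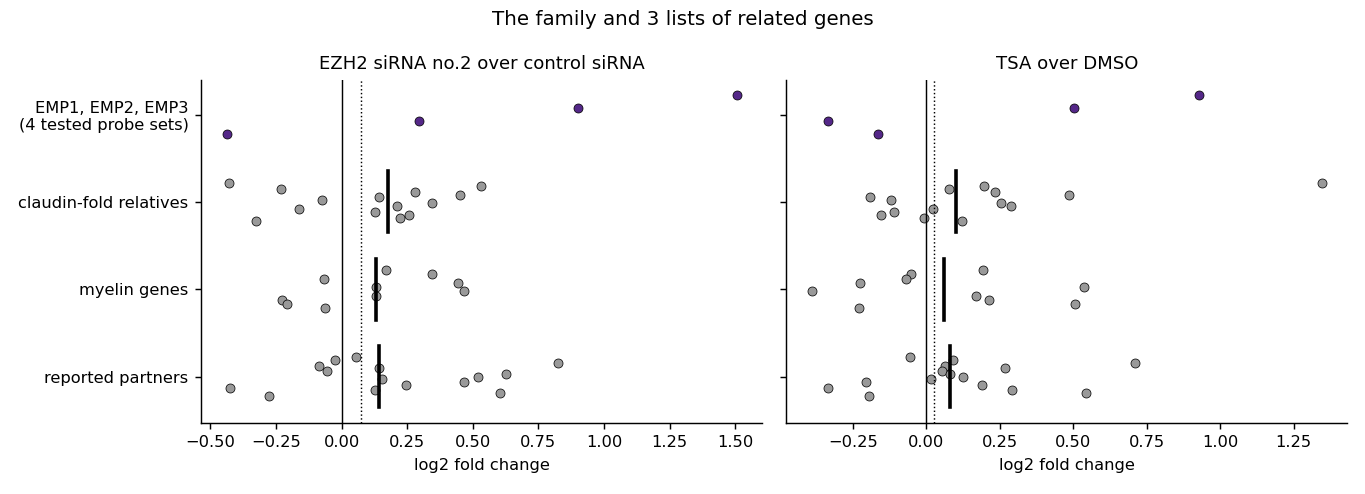
Log2 fold changes of the 4 tested EMP probe sets (top) and of the tested genes in 3 lists, with 1 point per gene, the list median as a bar and the median of all 9100 genes as a dotted line. EMP1 201324_at, at 1.51, lies to the right of every listed gene with EZH2 siRNA no.2, while with TSA CACNG3, at 1.35 with overlapping arrays, lies to its right.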

How the data were processed

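The deposited intensity values are MAS5 signals per probe set, made by the authors with MAS5 per the submitters' processing notes. Their version, scaling and detection calls are not given in the sources used here. Signals were used as log2(signal + 25.1), the 20th percentile of all values. Of 22283 probe sets, 19065 name 1 gene, and the 13665 of these with a mean signal of at least 53.3 (the 30th percentile) were fitted as 5 group means with limma 3.58.1 in R 4.3.3 (eBayes with trend, two-sided, threshold 0.05, 4 residual degrees of freedom), with Benjamini-Hochberg adjustment over all of them. The fit was also run on simulated data with independent noise and no differences shared by a replicate number. The outcome of that run is not reported here, so it does not vouch for the values above. No permutation test was run, since 0.333 is the smallest exact p that 2 against 2 arrays allow.

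The members and lists were chosen with earlier results of these data known. All probe sets of the members were named, the genes most like each member by Pearson r (5 for EMP1, 3 for the others), and from each list the 3 genes of smallest p in each main comparison. List genes were represented by their probe set of highest mean signal. Alternatives changed the pseudocount, filter, probe sets per gene, scaling, variance trend, arrays in the fit, grouping and replicate block, or left out 1 array.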

Additional observations from a re-analysis of the deposited data

How the results depend on the processing

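Of 24 member values (4 tested probe sets in 6 comparisons), recomputed 438 times in all, 0 passed the adjusted threshold under any alternative run and 11 took the other sign. On EMP1 201325_s_at, DMSO against the control siRNA gave −0.048 after quantile normalization and −0.057 after median scaling of the arrays. The other reversals came from leaving out 1 array, with ranges of −0.14 to 0.73 for EMP2 with EZH2 siRNA no.2, −0.69 to 0.19 for EMP2 with the unnumbered EZH2 siRNA and −0.33 to 0.0083 for EMP3 with TSA. DMSO against the control siRNA ran from −0.056 to 1.13 on EMP1 201324_at, from −0.45 to 0.51 on EMP1 201325_s_at and from −0.23 to 0.12 on EMP3. The EMP1 effect of EZH2 siRNA no.2 minus that of TSA ran from −0.018 to 1.17 on 201324_at and from −0.082 to 0.88 on 201325_s_at. The cause was not tested. With 1 probe set per gene, EMP1 201325_s_at has no value.

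EMP1 201324_at kept a positive value with EZH2 siRNA no.2 under every alternative run (0.91 to 2.10, limma adjusted p 0.495 to 0.996) and with TSA (0.45 to 1.41, 0.661 to 1.00). Its unadjusted p was under 0.05 in 19 of 20 alternatives with EZH2 siRNA no.2 and in 8 of 19 with TSA. That of EMP1 201325_s_at with EZH2 siRNA no.2 was under 0.05 in 14 of 19, and lay above it after quantile normalization (0.0592), after median scaling (0.0684), and without either EZH2 siRNA no.2 array or control siRNA replicate 2 (0.0731 to 0.260). EMP3 kept a negative value with EZH2 siRNA no.2 (−0.58 to −0.40). With no filter, EMP1 213895_at gave 0.54 with EZH2 siRNA no.2 (limma adjusted p = 0.913 over 19065 probe sets) and 0.05 with TSA. Fitting only the unnumbered EZH2 siRNA and control siRNA arrays gave 1 probe set past the adjusted threshold where the fit of all arrays gave 0, a change whose cause was not tested.

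At an unadjusted limma p under 0.05, the number of probe sets with EZH2 siRNA no.2 was 720, from 489 without EZH2 siRNA no.2 replicate 2 to 1182 with the replicate block. With TSA it was 330, from 145 without DMSO replicate 1 to 1032 without TSA replicate 2. The unnumbered EZH2 siRNA gave 684 (467 to 1038), and DMSO against the control siRNA gave 582 (313 to 965). EZH2 siRNA no.2 against the unnumbered EZH2 siRNA gave 255 (148 to 586), and the difference of effects gave 234 (150 to 524). With EZH2 siRNA no.2, 486 were higher and 234 lower, against 351 and 306 after quantile normalization, and 226 and 459 after median scaling, where the median of all probe sets was −0.06, against 0.07 without it. With TSA, 170 were higher and 160 lower, against 94 and 209 after median scaling. The unnumbered EZH2 siRNA gave 384 and 300, against 225 and 422 after median scaling, and DMSO against the control siRNA gave 400 and 182, against 240 and 291.

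Same-numbered arrays deviated together between EZH2 siRNA no.2 and control siRNA (r = 0.30) and between TSA and DMSO (r = 0.36). Other pairs of groups gave 0.10 (control siRNA and TSA) to 0.41 (EZH2 siRNA no.2 and TSA). The labels do not say what arrays of the same replicate number share, and the main fit left that number out. The replicate block raised the probe sets at an unadjusted limma p under 0.05 from 720 to 1182 with EZH2 siRNA no.2. With TSA it raised them from 330 to 600. With the replicate block, over the 8 numbered arrays, EMP1 201324_at gave 1.51 with EZH2 siRNA no.2 (limma adjusted p = 0.511) and 0.93 with TSA (0.979), and 0 probe sets passed in either. Ranked by Spearman correlation, 2 of the 5 genes most like EMP1 were shared, and 1 of the 3 most like EMP2.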
